A study of Rattus norvegicus with 18 samples.

Results

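Neutrophils are the white blood cells that reach injured tissue early from the blood, and 7 genes by which they are commonly recognised were followed here in rat cortex after stroke: S100a8, S100a9, Mpo, Csf3r, Mmp8, Cxcr2 and Elane. Members were taken as every non-control array probe that carries 1 of these symbols in the deposited files, or whose accession belongs to that gene in rat. This gave 8 probes for 6 of the 7 genes among 41012 probes on the array, and none for Elane. Only 3 of the 8 probes were bright enough to be tested, 1 each for S100a8, S100a9 and Csf3r. The label of a neutrophil signature was therefore only partly borne out, since the defining markers Mpo and Cxcr2 were not well above background on most arrays.

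RNA came from brain cortex of male Crl:CD(SD)BR rats weighing 250 to 280 g, with 1 animal on each 1-colour array and 18 arrays in 6 groups of 3. Sham-operated rats without treatment, rats with middle cerebral artery occlusion (MCAO, which cuts the blood supply to much of the lateral cortex) given saline, and rats with MCAO given erythropoietin (EPO, the hormone of red cell formation) were each sampled at 2 h and at 6 h. The sham rats did not receive saline per the labels, and the dose of EPO is not given in the sources used here. A level is given in log2 units above or below the 75th percentile of its own array, a difference in log2 units ± its standard error, and n = 3 arrays in every group. Arrays whose file headers give the same scan time are called a slide here, since the labels name no slides. Within-slide values compare arrays that share one. A call means an adjusted p under 0.05 in limma, with Benjamini-Hochberg adjustment over the 28634 probes tested.

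A neutrophil that meets an inflamed vessel rolls on selectins, is arrested through integrins and follows CXC chemokines into the tissue, where it releases its granules. S100a8 and S100a9 encode the paired calcium-binding proteins that form calprotectin, the most abundant protein of neutrophil cytosol, and monocytes also make them. Mpo and Elane encode the peroxidase and the elastase of the primary granules, Mmp8 the collagenase of the secondary granules, Csf3r the receptor for the growth factor G-CSF, and Cxcr2 the receptor for the chemokines Cxcl1 and Cxcl2. Messenger RNA for granule enzymes is made mainly by precursors in the bone marrow.

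The sequences just upstream of the start of transcription are shown for 3 members, 1 whose level differed between groups beyond its spread only in part of the fits (S100a9), 1 near background that was brighter at 6 h (Mmp8) and 1 that stayed level (Csf3r). RefSeq's table for the build GRCr8 held promoters of 5 of the 7 members, without S100a8 and Elane. Each run is the 250 bases before the start, 5′ to 3′ on the strand of the gene, and capitals mark matches to the motifs searched. S100a9 lies on the minus strand at chr2:178490623-178490872, Mmp8 on the plus strand at chr8:13008640-13008889 and Csf3r on the plus strand at chr5:143582970-143583219.
S100a9: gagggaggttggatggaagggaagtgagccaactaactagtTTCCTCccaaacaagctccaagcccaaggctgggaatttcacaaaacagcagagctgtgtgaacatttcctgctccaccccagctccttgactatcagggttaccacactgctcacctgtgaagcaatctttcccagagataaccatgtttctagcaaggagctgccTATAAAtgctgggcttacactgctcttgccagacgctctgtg
Mmp8: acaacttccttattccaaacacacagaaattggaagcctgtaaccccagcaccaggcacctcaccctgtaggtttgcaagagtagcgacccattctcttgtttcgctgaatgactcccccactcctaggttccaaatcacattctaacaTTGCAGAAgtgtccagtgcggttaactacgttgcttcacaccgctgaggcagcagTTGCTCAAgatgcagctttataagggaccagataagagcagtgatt
Csf3r: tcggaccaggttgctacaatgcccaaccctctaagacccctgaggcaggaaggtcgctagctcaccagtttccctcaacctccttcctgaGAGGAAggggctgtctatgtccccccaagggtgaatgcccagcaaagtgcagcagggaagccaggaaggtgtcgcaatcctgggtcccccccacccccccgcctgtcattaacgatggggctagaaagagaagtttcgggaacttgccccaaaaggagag
The motifs were C/EBP (TTNNGCAA), PU.1 (GAGGAA), NF-kB and AP-1 (TGANTCA), on both strands, and the TATA box (TATAAA) on the strand of the gene. S100a9 held a TATA box that begins 42 bases before the start and 1 PU.1 match on the other strand. Mmp8 held 2 C/EBP matches and Csf3r 1 PU.1 match. Among 33469 rat promoters of the same length, 8.06% held the TATA box, 23.3% the PU.1 letters and 9.22% the C/EBP letters. A match describes the letters only.

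Arrays differed in signal quality in a way that touches dim probes. The slope of signal on the amount of spiked-in transcript was 0.914 to 0.941 on 6 arrays, called steep here, and 0.788 to 0.866 on the other 12. Between 61.5% and 66.4% of probes were well above background on the steep arrays and 68.6% to 80.6% on the others. The steep arrays were replicate 1 of ischemia with saline at 2 h, of ischemia with EPO at 2 h and of sham at 6 h, replicates 1 and 3 of ischemia with saline at 6 h, and replicate 3 of ischemia with EPO at 6 h. All arrays of slide 5 were steep, and they alone were scanned on day 2. For those arrays slope class, slide and scan day cannot be told apart. Sham replicate 1 at 2 h had the lowest slope and stood apart from the other sham arrays for several members.

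S100a8 rose in the ischemic cortex by 6 h, with saline and with EPO. In sham cortex at 6 h its level was -3.85, -2.97 and -3.43 on the 3 arrays. The saline-treated ischemic arrays of that time gave -1.34, -1.50 and -1.61, and the EPO-treated ones -0.90, -2.18 and -2.26. All 6 ischemic arrays lay above all 3 sham arrays, a separation that 10.9% of all probes showed with saline and 11.8% with EPO. Ischemia with saline was 3.82-fold above sham (1.93 ± 0.39, adjusted p = 0.00657) and ischemia with EPO 3.11-fold (1.64 ± 0.39, adjusted p = 0.0116). In bulk tissue, more cells that hold an RNA and more of that RNA per cell cannot be told apart. S100a8 was 1 of the 3 tested members called at 6 h in each of these comparisons, which share the sham arrays. Over all probes, 4.79% were called higher with saline and 6.53% with EPO. Within slides that hold both groups, S100a8 was higher in ischemia with saline by 1.48 on slide 3 and 2.24 on slide 5, and in ischemia with EPO by 0.79 and 1.59. Without the 6 steep arrays, where 1 array of ischemia with saline at 6 h remains and is assumed to vary like the other groups, the differences were 1.70 (adjusted p = 0.26) and 1.66 (adjusted p = 0.0686). The EPO difference at 6 h was 1.42 (adjusted p = 0.0506) without sham replicate 1.

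**Figure D1:**
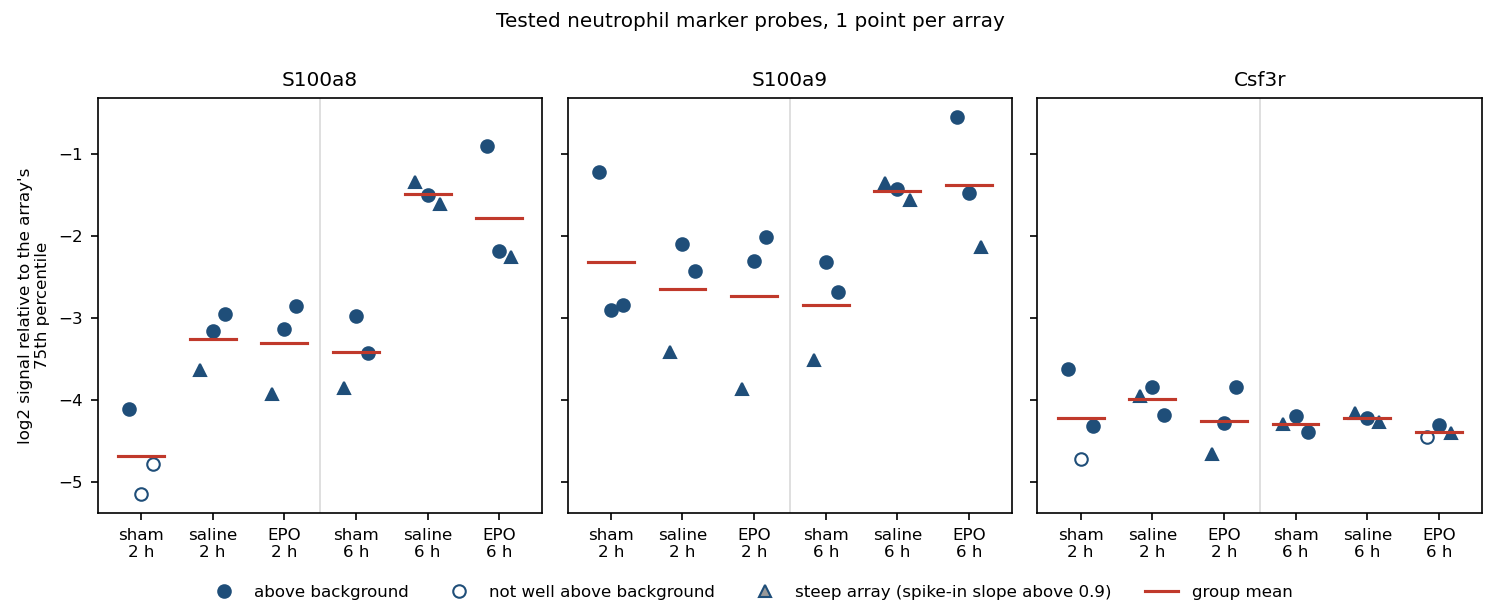
Level of S100a8, S100a9 and Csf3r on every array, as log2 signal relative to the array's 75th percentile, by group, with the group mean as a red line, triangles for steep arrays and open points for arrays where the probe was not well above background. S100a8 lies lowest in sham at 2 h and highest in both ischemic groups at 6 h. S100a9 is high in both ischemic groups at 6 h and on 1 sham array at 2 h. Csf3r stays between -4.71 and -3.62.

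At 2 h S100a8 already lay apart from sham, short of the threshold. Sham levels were -4.11, -5.14 and -4.78, and the probe was well above background on 1 of these arrays. Ischemia with saline gave -3.64, -3.16 and -2.95, and ischemia with EPO -3.92, -3.13 and -2.85. The groups did not overlap, which was also true in this direction of 6.67% of all probes with saline and 7.61% with EPO. The differences were 1.43 ± 0.39 (adjusted p = 0.114) and 1.37 ± 0.39 (adjusted p = 0.131), and 0 of 3 tested members were called where 0.898% and 1.00% of all probes were called higher. In each comparison S100a8 was called in 2 of 12 other settings and in 0 of 6 fits that left out 1 array. The 2 settings were quantile normalization (adjusted p = 0.00109 for saline and 0.000876 for EPO) and the slope class as a block (0.0279 and 0.0339). Over the 12 settings the difference ran from 0.53 to 2.13 with saline and from 0.50 to 2.19 with EPO.

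Over time S100a8 rose from 2 h to 6 h in both ischemic groups. The difference was 1.76 ± 0.39 with saline (adjusted p = 0.0145) and 1.52 ± 0.39 with EPO (adjusted p = 0.0234), against 3.60% and 4.61% of all probes called higher. In sham cortex all 3 arrays at 6 h also read above all 3 at 2 h, by 1.26 ± 0.39, without a call (adjusted p = 0.249, limma). Such a separation was seen in 7.30% of all probes, and 0.311% were called higher. The interaction of ischemia with time was 0.50 ± 0.55 for S100a8 (95% interval -0.68 to 1.69, adjusted p = 0.892, limma). Over all probes 1.43% were called. The ischemic difference was thus not shown to differ between 2 h and 6 h. The sham change and the interaction rest partly on readings at background, since 1 of 3 sham arrays at 2 h was well above it. The rise with saline missed the threshold without replicate 1 of ischemia with saline at 2 h (adjusted p = 0.0664) or at 6 h (adjusted p = 0.0562). The rise with EPO missed it without replicate 1 (adjusted p = 0.0884) or replicate 2 (adjusted p = 0.0537) of ischemia with EPO at 2 h, or replicate 1 at 6 h (adjusted p = 0.0982).

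The order of the S100a8 group means was ischemia with saline at 6 h (-1.48 ± 0.13, SD, n = 3), ischemia with EPO at 6 h (-1.78 ± 0.76), ischemia with saline at 2 h (-3.25 ± 0.35), ischemia with EPO at 2 h (-3.30 ± 0.56), sham at 6 h (-3.42 ± 0.44) and sham at 2 h (-4.68 ± 0.53). Neighbours did not overlap at 2 steps only, between ischemia with EPO at 6 h and ischemia with saline at 2 h, and between sham at 6 h and sham at 2 h.

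S100a9, the partner of S100a8, was high in ischemia at 6 h but passed no test in the main fit. Sham at 6 h gave -3.50, -2.32 and -2.68. Ischemia with saline at 6 h gave -1.36, -1.43 and -1.56, and ischemia with EPO -0.55, -1.47 and -2.13. The ischemic arrays all lay above the sham arrays, as 10.9% and 11.8% of all probes did. The differences were 1.39 ± 0.58 (adjusted p = 0.158) and 1.45 ± 0.58 (adjusted p = 0.116). Steep arrays read lowest for S100a9 within sham at 6 h, both ischemic groups at 2 h and ischemia with EPO at 6 h (-2.13). Among the later saline arrays, steep replicate 1 (-1.36) read above replicate 2 (-1.43), which was not steep. Steep replicate 3 (-1.56) read below both. The slope class as a block was chosen after seeing the data. It gave 6 h differences of 1.72 ± 0.43 (adjusted p = 0.02) with saline and 1.45 ± 0.42 (adjusted p = 0.0295) with EPO. In each comparison this block gave the 1 call among 13 other settings. Of 6 fits that left out 1 array, 0 gave a call. From 2 h to 6 h the difference was 1.19 ± 0.58 with saline (adjusted p = 0.273) and 1.34 ± 0.58 with EPO (adjusted p = 0.171).

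At 2 h S100a9 did not part the groups. Sham gave -1.22, -2.89 and -2.84, ischemia with saline -3.41, -2.09 and -2.42, and ischemia with EPO -3.86, -2.30 and -2.01. Sham replicate 1 was the highest of these 9 arrays, and the steep replicate 1 of each ischemic group was the lowest. The differences from sham were -0.32 ± 0.58 and -0.41 ± 0.58, and they were 0.23 and 0.14 without sham replicate 1. For S100a9 the interaction of ischemia with time was 1.71 ± 0.82 (adjusted p = 0.439). Across the 18 arrays S100a8 and S100a9 had a Pearson correlation of 0.72, as a description of arrays that share groups and slope class.

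Csf3r, the G-CSF receptor, stayed dim and level. It ran from -4.71 to -3.62 over the 18 arrays and was well above background on 16 of them. Sham at 2 h gave -3.62, -4.71 and -4.31, and ischemia with saline at 2 h -3.95, -3.83 and -4.18. Ischemia with saline at 6 h gave -4.15, -4.22 and -4.26 beside sham at 6 h with -4.29, -4.19 and -4.39. The difference at 6 h was 0.08 with a 95% interval of -0.42 to 0.58 with saline, and -0.09 with an interval of -0.59 to 0.41 with EPO. These intervals do not reach the S100a8 differences of the same comparisons. The correlation of Csf3r over arrays was 0.05 with S100a8 and 0.30 with S100a9.

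**Figure D2:**
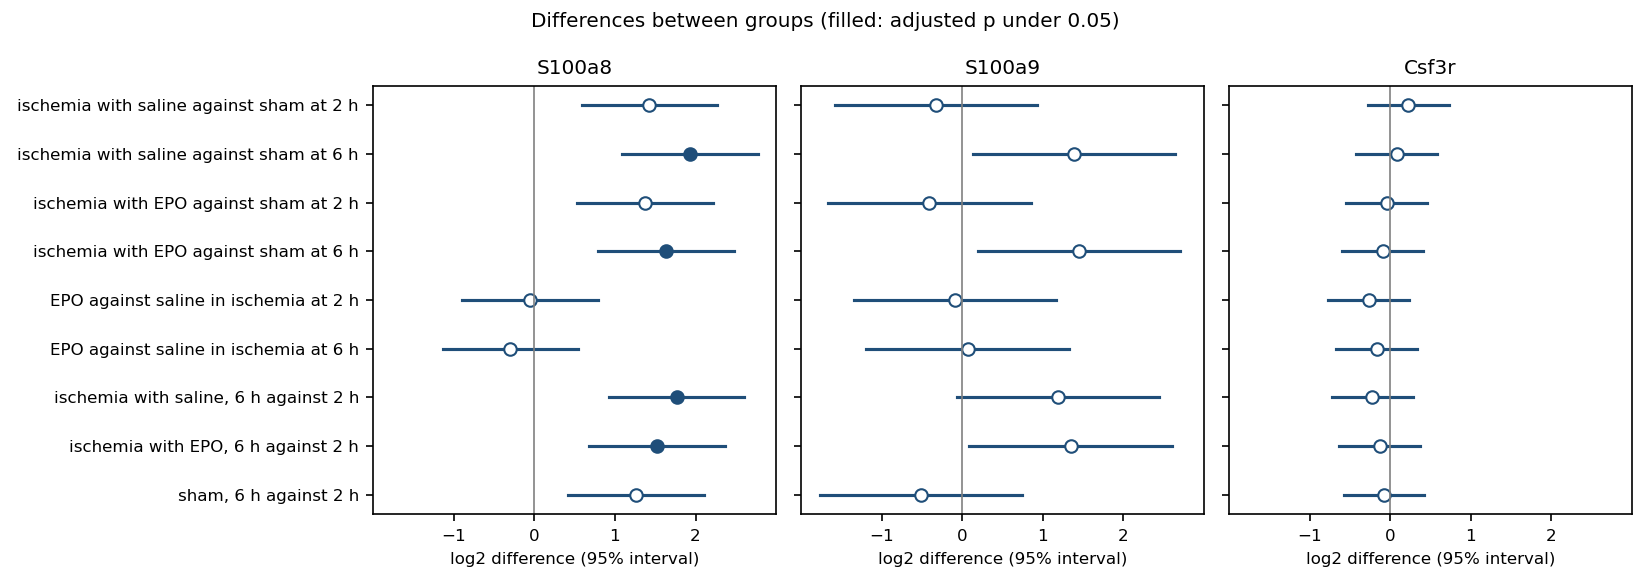
Log2 difference with its 95% interval for S100a8, S100a9 and Csf3r in 9 comparisons, filled where the adjusted p was under 0.05. The 4 filled points are all S100a8, at 1.93 and 1.64 against sham at 6 h and at 1.76 and 1.52 for 6 h against 2 h.

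Mmp8, the neutrophil collagenase, was near background everywhere and brightest in ischemia at 6 h. It was not well above background on any array of sham or of 2 h, where its readings were -5.35 or lower. Ischemia with saline at 6 h gave -4.71, -4.37 and -4.02, well above background on 2 of 3 arrays, and ischemia with EPO at 6 h gave -4.55, -4.67 and -5.46, on 0 of 3. Sham at 6 h read -6.60, -6.26 and -5.98, below every ischemic array of that time. Among the tested probes, which leave out Mmp8, 10.9% separated in this direction with saline and 11.8% with EPO. With saline the ischemic mean lay 1.61-fold above a sham floor on the main scale. That floor is the dimmest signal that still counted as above background on each sham array. The mean includes replicate 1 (-4.71), which was not well above background. Under normexp background correction the fitted difference was 0.65 log2 units, less than the 0.69 of that fold, so it is no lower limit. The filter kept Mmp8 out of the main test. A limma fit of all 40667 probes without the filter compares readings at background with brighter ones and gives no size. It called Mmp8 higher with saline at 6 h (adjusted p = 0.0126), beside 2.50% of probes called higher, with adjusted p from 0.00055 to 0.0487 over 5 other settings without the filter. With EPO at 6 h no array of either group was well above background, so no fold is given. The unfiltered fit gave an adjusted p of 0.0456 there, beside 3.67% of probes called higher, and the call was lost with normexp (adjusted p = 0.185), quantile normalization (adjusted p = 0.157) and the authors' values (adjusted p = 0.146).

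Mpo, the peroxidase, did not part ischemia from sham. It was well above background on 2 of 18 arrays, sham replicate 1 at 2 h (-3.44) and replicate 3 of ischemia with EPO at 2 h (-4.59). Sham at 6 h read -6.25, -5.05 and -5.44, ischemia with saline at 6 h -6.10, -4.92 and -5.90, and ischemia with EPO at 6 h -4.33, -5.12 and -5.76, so that the groups overlapped. All 6 steep arrays read -5.76 or lower, and 12 other arrays ran from -5.44 to -3.44.

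Cxcr2, the chemokine receptor, listed under its older symbol Il8rb, was well above background on 1 array, sham replicate 1 at 2 h (-3.76). On the other 17 it read -5.31 or lower. At 6 h sham gave -7.31, -7.12 and -6.70, ischemia with saline -6.96, -5.61 and -7.33, and ischemia with EPO -5.31, -6.35 and -7.26. Its readings on steep arrays ran from -7.33 to -6.96.

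S100a8 had 2 further probes, A_44_P674704 and A_44_P674708, both designed on 1 expressed sequence tag. They were well above background on 4 and 2 of 18 arrays, and did not follow the bright probe A_44_P1055780, which is on the RefSeq transcript. In ischemia with saline at 6 h probe A_44_P674704 read -6.93, -5.00 and -6.78, and sham at 6 h -7.28, -4.44 and -5.04. On the 6 steep arrays both probes read -6.67 or lower, and on the other arrays -6.16 or higher. The rise of S100a8 thus rests on 1 probe of 3. For Elane, a probe named Ela2_predicted was present but outside the rule, since Ela2 is an older symbol of 2 genes, and it was well above background on 0 of 18 arrays.

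**Figure D3:**
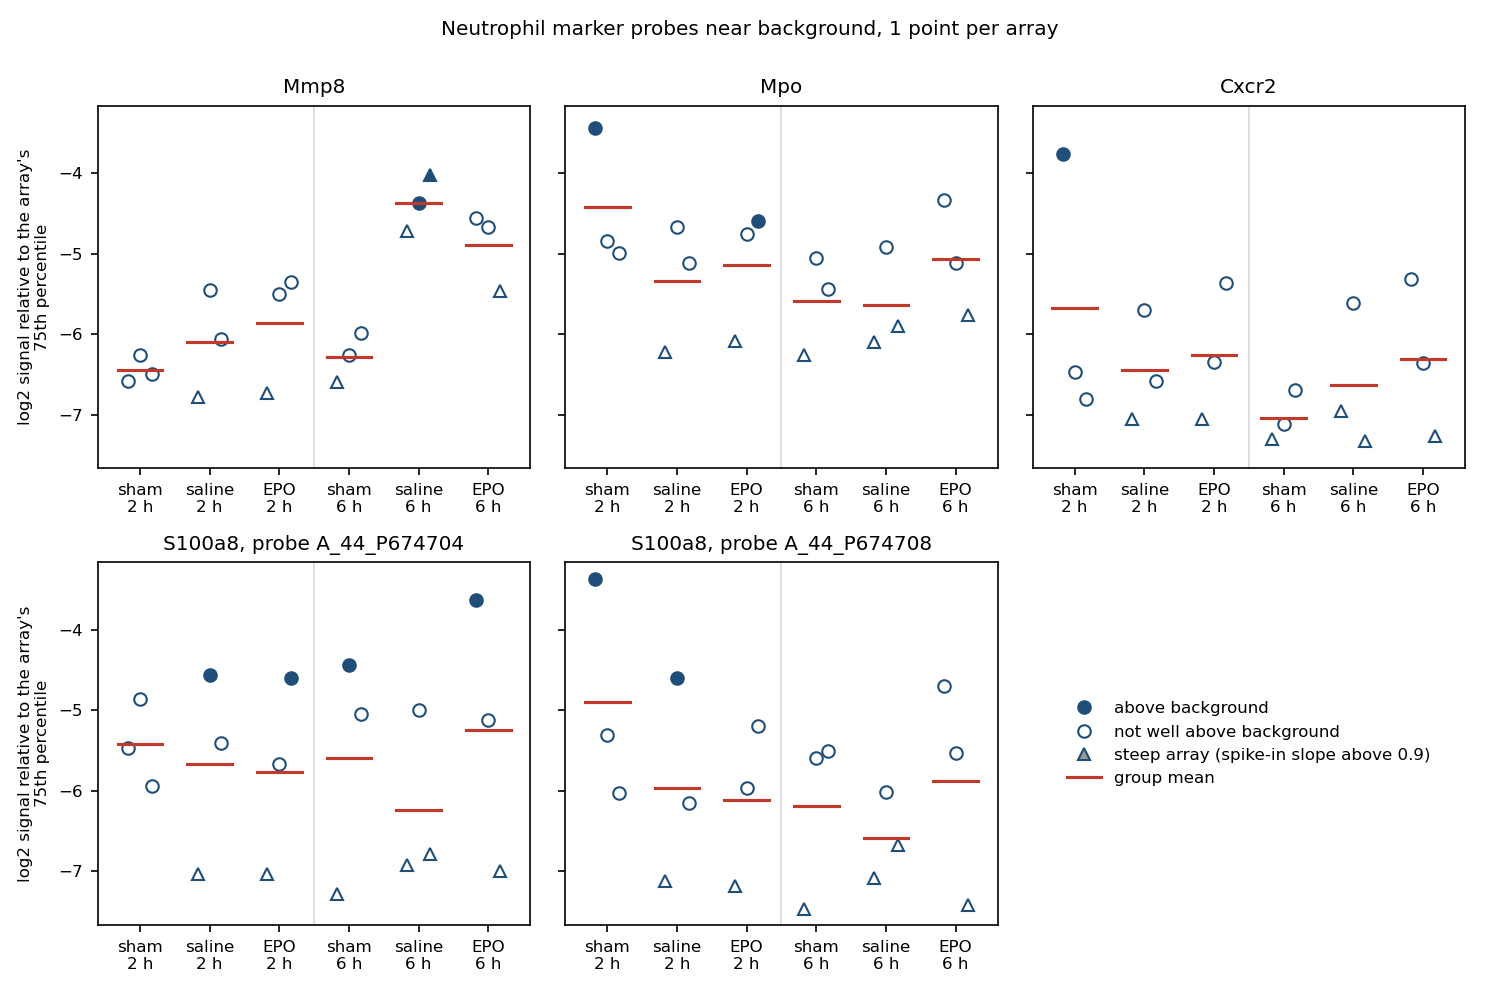
Readings of Mmp8, Mpo, Cxcr2 and the 2 other S100a8 probes on every array, as log2 signal relative to the array's 75th percentile, with group means as red lines, triangles for steep arrays and open points where the probe was not well above background. Mmp8 is highest in ischemia with saline at 6 h, and the steep arrays read lowest for Mpo and both S100a8 probes.

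EPO against saline in ischemia was the comparison for an effect of the hormone, and no member passed it. S100a8 differed by -0.05 at 2 h (95% interval -0.89 to 0.79) and by -0.30 at 6 h (-1.14 to 0.54). S100a9 differed by -0.08 (-1.34 to 1.17) and 0.07 (-1.19 to 1.32). The intervals leave room for changes over 1 log2 unit in either direction for S100a9, so equal levels are not shown. At 6 h the 3 arrays of Csf3r with EPO lay below the 3 with saline, by -0.17 ± 0.23, a separation seen in this direction in 3.48% of all probes. Over all probes limma called 0% at either time, with 381 probes at 2 h and 1184 at 6 h under an unadjusted p of 0.05. The interaction of EPO with time called 0 of 3 members and 0 probes (668 at an unadjusted p under 0.05). In the EPO group at 6 h replicate 1 was the highest array for S100a8 and S100a9.

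By Pearson correlation over the 18 arrays the genes most like S100a8, of 12403 compared, were Myo1g (0.947), a myosin of blood cells, Napsa (0.943), an aspartic protease, Il1rn (0.921), the interleukin-1 receptor antagonist, and Plscr1 (0.913), a scramblase of the cell membrane. Il1rn had a sham mean of -3.39 at 2 h and -2.76 at 6 h, and a mean with ischemia and saline of -2.85 at 2 h and -1.56 at 6 h. Like S100a8, it read higher in sham at the later time.

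The list of neutrophil attractants and growth factors, which includes the cytokines Il1b and Tnf, was the most changed of the related lists. All the lists were chosen with earlier results in view. At 6 h with saline, 6 of 8 tested attractants and growth factors were called higher and 0 lower, beside 4.79% and 6.26% of all probes. Their median was 1.53, beside -0.13 over all probes. At 2 h 3 of 8 were called higher, Cxcl1, Cxcl2 and Il1b, beside 0.898% of all probes. Cxcl2, a ligand of Cxcr2, was not well above background on any sham array. It read -0.78, -1.28 and -0.46 in ischemia with saline at 2 h and 0.54, 0.65 and 0.81 at 6 h. The means lay 13.2-fold and 53.0-fold above the sham floor, set as for Mmp8. Cxcl1, the other such ligand, was 19.5-fold above the sham floor at 2 h, when no sham array was well above background. It rose by 5.12 ± 0.33 at 6 h, when 2 of 3 sham arrays were. Cxcl1 and Cxcl2 were bright enough to be tested only through ischemic groups. Their calls in the counts of this list depend in part on that filter and add no support. Il1b, the cytokine interleukin-1 beta, rose by 1.90 ± 0.29 and 3.14 ± 0.29, and Tnf by 1.57 ± 0.31 at 6 h. Csf3, the ligand of Csf3r, was well above background on 0 of 18 arrays.

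Adhesion genes followed at 6 h with saline, with 4 of 10 called higher and 1 lower (median 0.44), beside 4.79% and 6.26% of all probes. Sele, the endothelial selectin on which neutrophils roll, read -0.33, -0.61 and -0.52 in ischemia with saline at 6 h. In sham at 6 h it read -5.27, -3.85 and -6.21, and was well above background on 1 array. The difference was 4.62 ± 0.51, which is no exact size, since most of these sham readings were at background. Sele was bright enough to be tested only through ischemic groups. Its call in the count of this list depends in part on that filter and adds no support. Icam1, the endothelial ligand of integrins, rose by 1.02 ± 0.15 at 2 h and 2.08 ± 0.15 at 6 h. Itgb2, the integrin chain shared by leukocytes, rose by 0.70 ± 0.14 and Cd44, a hyaluronan receptor, by 1.20 ± 0.14 at 6 h, while Selplg, the selectin ligand of leukocytes, fell by 0.85 ± 0.20. Selplg was named after its value was seen, as the 1 gene of the list called lower, beside 6.26% of all probes.

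Other granule proteins were called higher for 2 of 8 tested at 6 h with saline (median 0.32), beside 4.79% of all probes. Mmp9, the gelatinase of neutrophil granules that other cells also make, rose by 0.93 ± 0.14 (adjusted p = 0.000886), and Lyz2, a lysozyme of myeloid cells, by 0.49 ± 0.13. Lcn2, a secondary granule protein also made by glia, differed by 1.08 ± 0.40 (adjusted p = 0.11), and by 1.53 ± 0.40 with EPO (adjusted p = 0.0197). Np4, a defensin, differed by -0.28 ± 0.15. Ltf, Ngp, Bpi and Defa5 were not bright enough to be tested.

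Other receptors and oxidase subunits were called higher for 5 of 12 at 6 h with saline (median 0.31), beside 4.79% of all probes. Il1r2, the decoy receptor of interleukin-1, rose by 1.77 ± 0.25, Tlr2, a receptor of microbial lipids, by 1.05 ± 0.15, and C5ar1, the receptor of complement C5a, by 0.79 ± 0.08. Ptafr, the receptor of platelet-activating factor, rose by 0.87 ± 0.07 at 2 h and 0.38 ± 0.07 at 6 h. Of the other S100 genes 0 of 9 were called at 6 h with saline (median 0.17), and S100a6 differed by 0.34 ± 0.12. With EPO at 6 h, 6 of 8 in the attractant list, 5 of 10 adhesion genes and 3 of 8 granule proteins were called higher. So were 5 of 12 receptors and oxidase subunits and 1 of 9 S100 genes, beside 6.53% of all probes.

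**Figure D4:**
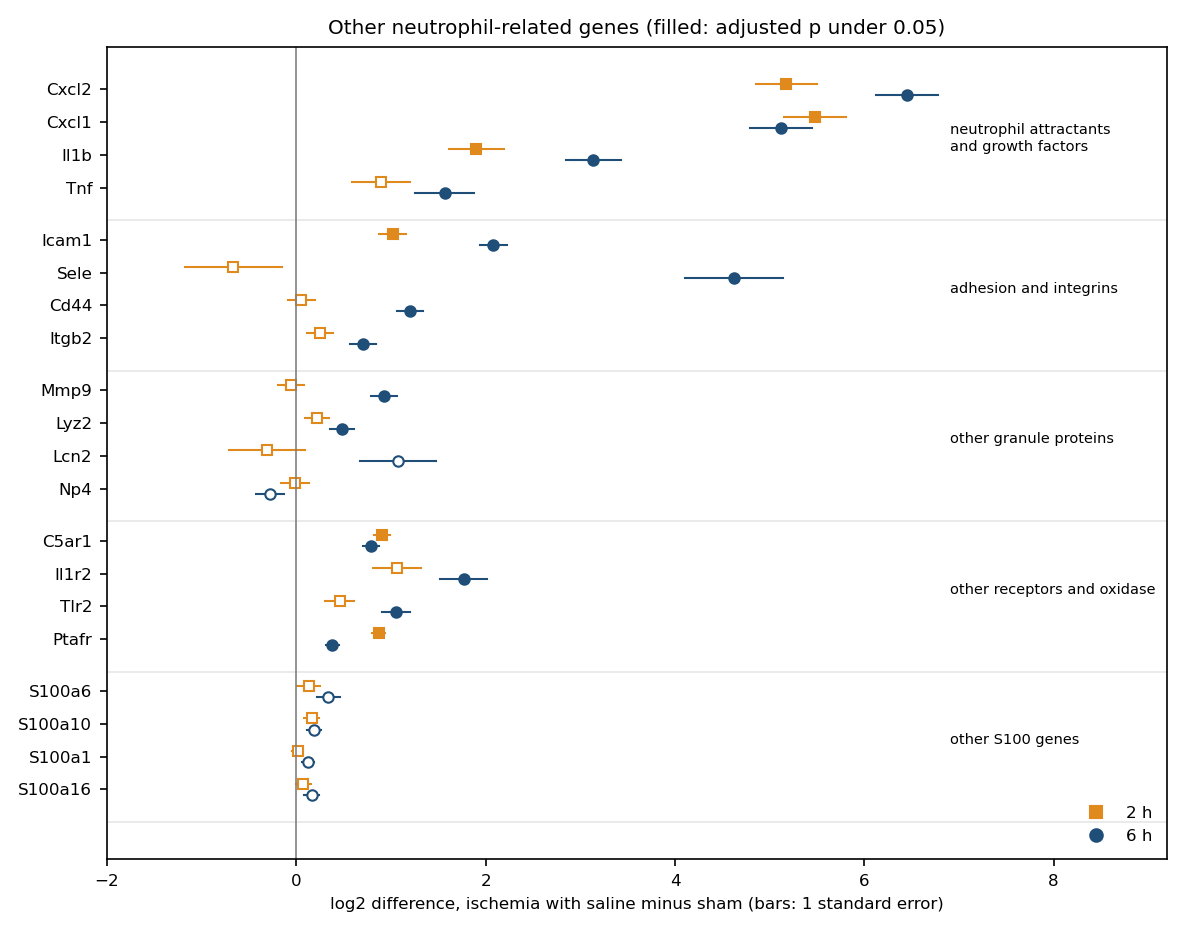
Log2 difference between ischemia with saline and sham at 2 h (squares) and 6 h (circles) for 4 genes of each related list, with bars of 1 standard error, filled where the adjusted p was under 0.05. The points of Cxcl2 at both times and of Cxcl1 and Sele at 2 h are set against sham arrays that were not well above background. They are no exact differences, and for Sele at 2 h the ischemic arrays were at background too. Cxcl1 at 6 h is at 5.12, with 2 of 3 sham arrays well above background, and Sele at 6 h at 4.62, with 1 of 3. The 4 other S100 genes stay within 0.34 of sham.

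Some markers of other cells differed from sham at 6 h beside S100a8. Over all probes 4.79% were called higher and 6.26% lower with saline, and 6.53% higher with EPO. The summed level of 9 monocyte and macrophage markers, as signal relative to the 75th percentile, ran from 2.73 to 3.28 in sham at 6 h, from 4.97 to 5.20 with saline and from 5.32 to 6.36 with EPO, and 2 and 3 of the 9 were called higher. With saline these were Cd14, a receptor of monocytes (1.73 ± 0.18), and Lgals3, a galectin (1.23 ± 0.11). The median of the 9 was 0.22, and the lowest was F13a1 at -0.36 ± 0.65. Of 5 microglial markers 1 was called higher, Aif1 (0.26 ± 0.08), and 2 lower, P2ry12 (-0.99 ± 0.21) and Tmem119 (-0.66 ± 0.15), with a median of -0.19. Of 6 neuronal markers 3 were called lower, Neurod6 (-0.81 ± 0.16), Syt1 (-0.26 ± 0.07) and Snap25 (-0.24 ± 0.07), with a median of -0.27. Of 4 endothelial markers 2 were called lower, Tek (-1.02 ± 0.19) and Cldn5 (-0.52 ± 0.13), with a median of -0.25. The sums of 4 red cell markers ran from 1.99 to 2.97 in sham at 6 h, from 1.90 to 2.85 with saline and from 3.27 to 3.95 with EPO, with 0 of 4 called. With saline at 6 h, 0 of 5 astrocyte, 0 of 4 oligodendrocyte, 0 of 6 lymphocyte and 0 of 3 platelet markers were called. With EPO 1 astrocyte and 1 platelet marker were called higher. Called lower with EPO were 4 of 6 neuronal, 2 of 5 microglial and 2 of 4 endothelial markers. Of the 28634 probes tested, 4615 were called with EPO in either direction, 1869 of them higher. The part of any of these cells in the S100a8 result was not tested.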

How the data were processed

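RNA of brain cortex was labelled with Cy3 and hybridized to 1-colour arrays, 18 in 6 groups of 3 taken from the labels, with separate samples treated as replicates. Per the file headers, the deposited scanner files give a processed signal intensity per spot (background-subtracted, linear) with quality calls, written by Agilent Feature Extraction 9.1.1.1. The authors' deposited value table gives log2 intensity, and matched the averaged log2 spots of the scanner files, unscaled (largest difference 4.97e-14). The scanner files were used. The 75th percentile of non-control spots was subtracted on each array. Spots of 1 probe were averaged, and outlier spots left out, which removed 345 probes.

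Probes well above background on all 3 arrays of at least 1 group were tested (28634). One model of 6 group means was fitted with limma 3.58.1 in R 4.3.3 (12 residual degrees of freedom), two-sided, and tested on simulated data. The brightest tested probe stood for its gene. Members and lists were chosen with earlier results of these data known. The text names all members, up to 4 genes per list of smallest p in ischemia with saline against sham at 6 h, and the 4 genes most correlated with a called member. Where the text names other genes of a list, they were chosen after their values were seen. Alternatives varied background correction, normalization, filter, outliers, variance model, arrays, slide, replicate number and slope class.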

Additional observations from a re-analysis of the deposited data

How the results depend on the processing

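The rise of S100a8 in ischemia with saline at 6 h was called in 11 of 12 settings that could test its bright probe and in 6 of 6 fits that left out 1 array. The exception was the fit without the 6 steep arrays. Counts of called members moved as follows. Quantile normalization called 1 in place of 0 in ischemia with saline and with EPO at 2 h and in sham over time. The authors' values without scaling called 0 in place of 1 for EPO over time. Restricting to probes above background on all 18 arrays, which drops S100a8, called 0 at 6 h and over time in both ischemic groups, and so did leaving out the 6 steep arrays. Fitting only the arrays compared called 0 for EPO at 6 h and over time. The slope class as a block, chosen after seeing the data, called 1 in both groups at 2 h, 2 in both at 6 h and 2 for saline over time. Leaving out 1 array at a time gave 0 to 1 calls for both ischemic groups over time and for EPO against sham at 6 h. The replicate number as a block changed no call of a member (S100a8 at 6 h with saline, adjusted p = 0.0154). Same-number arrays correlated above 0.1 throughout in 1 of 9 comparisons, EPO against saline at 2 h (0.887, 0.654 and 0.635). Replicate 1 was steep in both of those groups, so such correlations cannot tell pairing of animals from array quality. The labels state no pairs, and the numbers were not taken as pairs.

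Signs turned only in differences that were not called, apart from the other S100a8 probes, and the cause was not tested. Against sham, Csf3r gave -0.014 with normexp at 2 h with saline and 0.13 at 6 h with EPO. With EPO at 2 h it gave 0.64 with quantile normalization, 0.18 and 0.0054 with slide as a fixed and a random block, and 0.16 without the steep arrays. S100a9 at 2 h gave 0.062 with saline and 0.16 with EPO without the steep arrays, 0.012 with saline under the slope block and 0.14 with EPO under the fixed slide block, which also gave 0.031 for sham over time. For EPO against saline at 2 h S100a9 gave 0.0010 with normexp, 0.46 and 0.083 with slide as a fixed and a random block and 0.10 without the steep arrays, and S100a8 gave 0.060 with quantile normalization, 0.36 and 0.074 with the slide blocks and 0.064 without the steep arrays. At 6 h S100a9 gave -0.27 under the slope block. The interaction of S100a8 was -0.20 with quantile normalization.

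Leaving out 1 array gave, against sham at 2 h, -0.024 to 0.52 for Csf3r and -0.61 to 0.23 for S100a9 with saline, and -0.29 to 0.26 and -0.76 to 0.16 with EPO. It gave -0.80 to 0.033 for S100a9 in sham over time. For EPO against saline it gave -0.28 to 0.26 for S100a8 and -0.47 to 0.48 for S100a9 at 2 h, and -0.35 to 0.44 for S100a9 at 6 h. In the fit without a filter the dim S100a8 probes A_44_P674704 and A_44_P674708 gave -0.25 and -1.06 with saline at 2 h, -0.65 and -0.40 at 6 h, -0.34 and -1.21 with EPO at 2 h, 0.99 and 0.71 for EPO against saline at 6 h, -0.57 and -0.63 for saline over time, -0.17 and -1.29 for sham over time, and -0.40 for the interaction in the first of them. These probes and Mpo and Cxcr2 are limited by signal over background.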
